A study of Mus musculus with 8 samples.

Results

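The genes described are 10 that carry out or control antigen presentation on MHC class II: H2-Aa, H2-Ab1, H2-Eb1, H2-DMa, H2-DMb1, H2-DMb2, H2-Oa, Cd74, Ciita and Ctss. They were taken by name from the 41388 Ensembl genes of the deposited tables, with symbols from GENCODE M21, and all 10 were found. All 10 also passed the filter on low counts, among 13933 genes tested. The libraries are RNA from macrophages of epididymal white adipose tissue, the fat depot beside the epididymis, of male MitoFat mice (4 animals) fed normal chow. These animals hold a mitochondrial reporter in adipocytes alone, by its label. Neither its promoter nor the age of the animals is given in the sources used here. From each mouse, live CD45+ F4/80+ CD64+ cells were sorted into cells with the reporter (mtD2+) and cells without it (mtD2-). This gave 4 mtD2+ and 4 mtD2- libraries, paired by mouse. The comparison asks how macrophages that held the mitochondrial reporter of adipocytes differed from macrophages of the same fat that did not.

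MHC class II molecules are pairs of an alpha and a beta chain that display peptides from ingested material to CD4+ T cells. In the endoplasmic reticulum they bind the invariant chain, Cd74, which blocks the peptide groove and guides them to endosomes. There proteases, cathepsin S (Ctss) prominent among them, cut Cd74 down to a short remnant, and H2-DM exchanges that remnant for antigenic peptides while H2-O restrains H2-DM. Transcription of the class II chain genes depends on Ciita, a transactivator that does not bind DNA itself. It docks on factors held at conserved X and Y boxes in class II promoters. Macrophages hold variable amounts of class II, and interferon gamma is the classical inducer.

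Of the 10 genes, 6 fell in mtD2+ macrophages and 0 rose, at an adjusted p under 0.05 over all tested genes (edgeR quasi-likelihood test with the mouse as a block). Among all tested genes, 1.78% were called lower, 3.72% higher and 5.5% either way. The 6 were the classical chains H2-Aa, H2-Ab1 and H2-Eb1, the invariant chain Cd74, and the H2-DM chains H2-DMa and H2-DMb1. Their levels were lower by 30.9% to 39.9%, and each was lower in all 4 mice, as were 16% of all tested genes. In this fit the fall was at least 1.5 times in 5 of them, Cd74 being the exception, against 1.25% of all tested genes called lower by that much. H2-Aa, at −0.590 on the log2 scale, missed that mark with RLE scaling (−0.579), DESeq2 (−0.579) and upper quartile scaling (−0.563). H2-Eb1 missed it with upper quartile scaling (−0.579). Without mouse 4 H2-DMb1 alone reached it (−0.678), with H2-DMa next at −0.580. Ciita, Ctss, H2-DMb2 and H2-Oa did not pass. The median log2 fold change of the 10 was −0.60, against 0.00 over all tested genes, and without mouse 4 it was −0.47 with the same 6 genes called. Without the mouse block 1 of the 6 calls was left, that of H2-DMb1, and without mouse 3 none was left (1 without mouse 1).

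The libraries held 18462287 to 27464399 counts and between 17285 and 19073 genes with a count. The mtD2- library of mouse 4 stood apart for class II genes, as its values below show. Of 12 macrophage markers all 12 were tested, and 1 was called higher (Mertk) and 2 lower (Adgre1 and C1qb). Library totals, DESeq2 and limma voom called 4 lower, and 0 were called without the block or without mouse 1, 3 or 4. Of the sort markers, Ptprc, which encodes CD45, was at 464 ± 45.7 CPM in mtD2+ and 460 ± 65.7 CPM in mtD2- (SD, n = 4 each). Adgre1, which encodes F4/80, was at 466 ± 41.7 CPM in mtD2+ and 685 ± 94.5 CPM in mtD2- (log2 −0.55, SE 0.12, adjusted p = 0.0336). Fcgr1, which encodes CD64, was at 118 ± 15.2 CPM in mtD2+ and 160 ± 3.05 CPM in mtD2- (log2 −0.44, SE 0.11, adjusted p = 0.0554), with no overlap between the groups. The part of these 2 differences in the class II result was not tested. In such bulk libraries fewer cells of a type and less RNA per cell cannot be told apart.

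The 7 stretches of promoter sequence below show which of the X and Y box patterns lie upstream of the RefSeq start sites of these genes and where they differ. RefSeq promoter windows on GRCm38.p6, from 250 bases before to 50 after the start site, were matched for 7 of the 10 genes. They are H2-Aa, H2-Eb1, H2-DMa, H2-DMb1, H2-DMb2, H2-Oa and Ctss. Each stretch is given 5′ to 3′ on the strand of the gene. In the class II genes, capitals mark matches to AACNNNTGA (part of the X box), to TGACGTCA (a cyclic AMP response element, which is one form of the X2 box) and to GATTGG (the Y box). In Ctss, capitals mark GAAA and GAAA spaced by 2 bases, the pattern of an interferon-stimulated response element. H2-Ob, the partner chain of H2-Oa and no member of the set, is added for comparison, and only 30 bases are shown for H2-DMb1. The H2-DMb1 and H2-DMb2 stretches lie inside the gene spans of the deposited tables, which begin at 34153072 and 34143307.
H2-Eb1 (chr17:34305757-34305822, + strand): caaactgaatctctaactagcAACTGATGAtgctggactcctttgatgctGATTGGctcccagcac
H2-DMb2 (chr17:34145108-34145173, + strand): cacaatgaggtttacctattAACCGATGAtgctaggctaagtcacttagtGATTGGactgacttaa
H2-DMb1 (chr17:34153093-34153122, + strand): cctagtAACTGATGAtgctaggctgattca
H2-Ob (chr17:34238797-34238862, + strand): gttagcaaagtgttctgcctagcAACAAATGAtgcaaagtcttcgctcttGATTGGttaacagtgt
H2-Aa (chr17:34287857-34287922, - strand): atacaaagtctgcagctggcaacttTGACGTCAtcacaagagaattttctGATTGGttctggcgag
H2-Oa (chr17:34092285-34092340, + strand): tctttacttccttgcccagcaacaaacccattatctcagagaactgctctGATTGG
Ctss (chr3:95526735-95526785, + strand): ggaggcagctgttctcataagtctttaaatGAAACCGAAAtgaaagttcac

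The X box pattern followed by the Y box pattern on the same strand, at most 40 bases apart, was present in the windows of H2-Eb1, H2-DMb1 and H2-DMb2, and of H2-Ob. Of all 32851 promoter windows, 32 held this arrangement (0.0974%). Each pattern alone was common: searched on both strands, AACNNNTGA matched 11.9% of windows and GATTGG 16.1%. H2-Aa held GATTGG 49 bases before its start, and TGACGTCA, which was in 1.79% of windows, but no match to AACNNNTGA. Its stretch reads aacttTGA at that place, a shorter form than the pattern searched. The lack of a match thus does not mean that the X box is absent. H2-Oa held GATTGG alone. Neither H2-DMa window held the arrangement, and 1 of them held GATTGG. These windows begin at 34122582 and 34125268, well before the counted span of H2-DMa, which begins at 34135182. Sequence directly upstream of that span was not searched. The Ctss window had no match to the X or Y pattern and 1 to the interferon response pattern (3.44% of windows), 21 bases before its start. The letters searched were chosen with these promoters in view, and a match is a description and not a binding site. Of the members with the arrangement, H2-Eb1 and H2-DMb1 fell and H2-DMb2 did not pass.

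The classical chains form the molecules that carry peptide to the cell surface. Levels are CPM, scaled to each library's tested total times its TMM factor. H2-Aa (ENSMUSG00000036594, chromosome 17, 34282744 to 34287827) encodes the alpha chain of the I-A molecule. It stood at 6298, 5414, 5962 and 9078 CPM in the mtD2+ libraries of mice 1 to 4, against 8872, 8345, 8624 and 14855 CPM in the mtD2- libraries. Mouse 4 had the highest value of both populations, and its mtD2+ library lay above the mtD2- libraries of the other 3 mice, so that the groups overlapped although every pair fell. The fitted log2 fold change was −0.59 (SE 0.09, adjusted p = 0.0111), with a mean of 6688 ± 1635 CPM in mtD2+ and 10174 ± 3128 CPM in mtD2- (SD, n = 4 each).

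H2-Ab1 (chromosome 17, 34263209 to 34269418), the I-A beta chain, stood at 3457, 2811, 3367 and 3965 CPM in mtD2+, against 4503, 4127, 4909 and 8154 CPM in mtD2-. The groups did not overlap, and the widest gap within a mouse was in mouse 4, at −1.04 on the log2 scale against −0.38 to −0.55 in the others. Its log2 fold change was −0.63 (SE 0.12, adjusted p = 0.0241), or −0.49 without mouse 4. H2-Eb1 (chromosome 17, 34305877 to 34316199), the beta chain of the I-E molecule, stood at 4117, 3493, 3841 and 5903 CPM in mtD2+, against 5754, 5266, 5826 and 9933 CPM in mtD2-. As for H2-Aa, the mtD2+ library of mouse 4 lay above the lower 3 mtD2- libraries. Its log2 fold change was −0.61 (SE 0.10, adjusted p = 0.0111). The gene for its usual partner, the I-E alpha chain, is annotated here as the polymorphic pseudogene H2-Ea-ps, and it had 20 counts over all 8 libraries, against 1018778 for H2-Eb1. H2-Eb2, another beta chain gene of the locus, had 44 counts. Neither was tested.

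Cd74 (ENSMUSG00000024610, chromosome 18, 60803848 to 60812646) is the invariant chain. It had the most counts and the highest mean RPKM of all 41388 genes. It stood at 26371, 25402, 27310 and 38273 CPM in mtD2+, against 37247, 32602, 37557 and 67480 CPM in mtD2-. Every pair fell, by 0.50, 0.36, 0.46 and 0.82 on the log2 scale, and the groups overlapped through mouse 4 alone. The fitted log2 fold change was −0.53 (SE 0.10, adjusted p = 0.0230), or −0.44 without mouse 4. The microRNA gene Mir5107 is annotated inside Cd74, so the assignment of reads at that site is uncertain.

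Together H2-Aa, H2-Ab1, H2-Eb1 and Cd74 took 3.95%, 3.64%, 4.04% and 5.48% of all counts of the mtD2+ libraries, against 5.79%, 5.40%, 6.05% and 9.25% of the mtD2- libraries. The mean was 4.28 ± 0.818% in mtD2+ and 6.62 ± 1.77% in mtD2- (SD, n = 4 each). The 95% Wilson intervals of single libraries were at most 0.0117 percentage points to either side and cover counting error only. Cd74 alone took 2.87 ± 0.540% of counts in mtD2+ and 4.38 ± 1.24% in mtD2-.

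**Figure D1:**
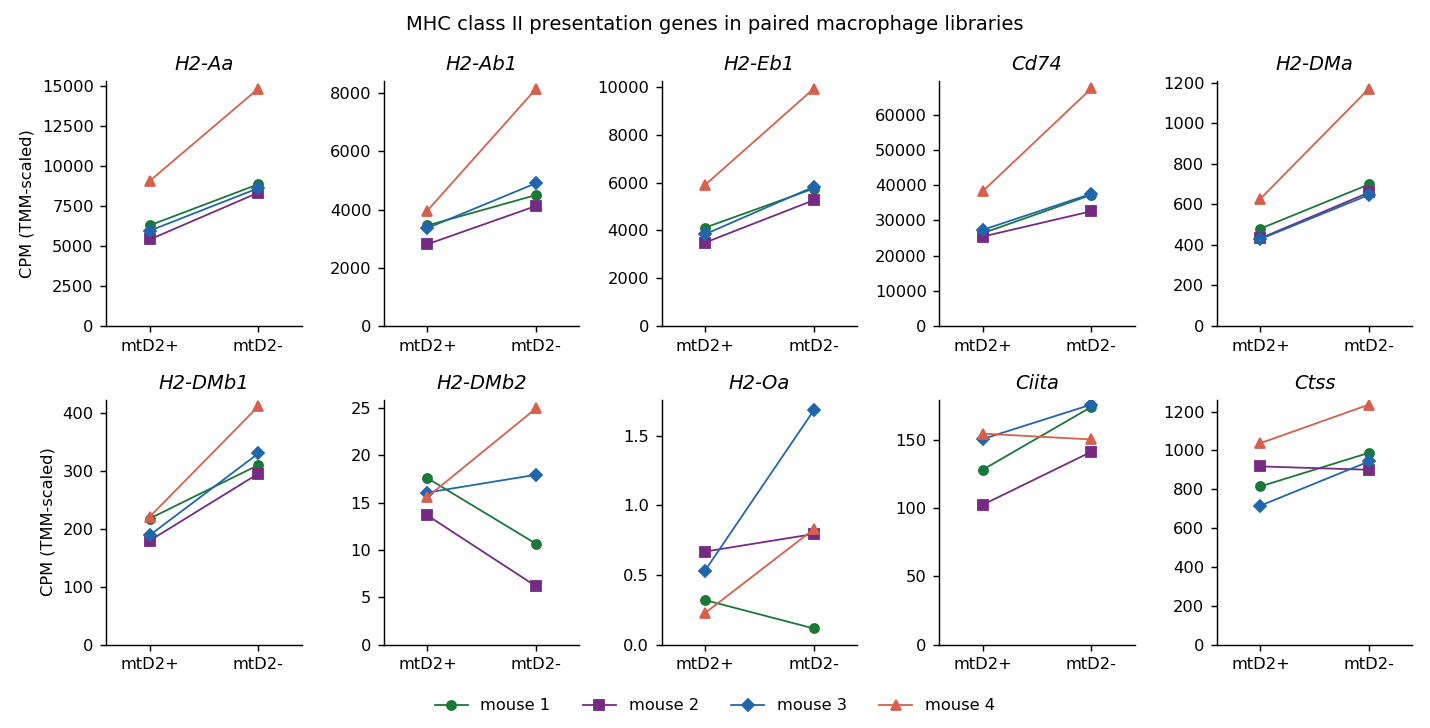
Level of each of the 10 genes in CPM (linear axes from 0) in the mtD2+ and mtD2- libraries, with a line joining the 2 libraries of a mouse. All lines slope up toward mtD2- for H2-Aa, H2-Ab1, H2-Eb1, Cd74, H2-DMa and H2-DMb1, and mouse 4 is the highest in the mtD2- group for each of these 6.

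H2-DM loads peptides: it is a pair of the chains that H2-DMa and either H2-DMb1 or H2-DMb2 encode. H2-DMa (chromosome 17, 34135182 to 34139101) stood at 480, 432, 429 and 627 CPM in mtD2+, against 699, 658, 647 and 1171 CPM in mtD2-. The highest mtD2+ value lay just under the lowest mtD2- value, so the groups did not overlap. The fitted value was −0.66 on the log2 scale (SE 0.11, adjusted p = 0.0118). H2-DMb1 (chromosome 17, 34153072 to 34160230) stood at 217, 179, 189 and 221 CPM in mtD2+, against 310, 295, 330 and 411 CPM in mtD2-. It had the largest fall of the 6, with groups well apart: the log2 fold change was −0.73 (SE 0.11, adjusted p = 0.00822), and it also passed without the block (adjusted p = 0.0327). Of the 10 genes, 3 had mtD2+ libraries that all lay below all mtD2- libraries (H2-Ab1, H2-DMa and H2-DMb1), against 6.01% of all tested genes, and 0 lay above throughout, against 6.55%.

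H2-DMb2 (chromosome 17, 34143307 to 34151553) did not move with its neighbours. It stood at 17.6, 13.7, 16.1 and 15.6 CPM in mtD2+, against 10.7, 6.16, 17.96 and 25.0 CPM in mtD2-. The mtD2+ libraries were close together and the mtD2- libraries spread around them, with mtD2+ higher in mice 1 and 2 and lower in mice 3 and 4. The fit gave 0.25 (SE 0.31, adjusted p = 0.672), and it turned to −0.04 without mouse 2. H2-DMb1 and H2-DMb2 are near-identical copies. Their main transcripts were identical at 93.9% of 1255 aligned bases, and 27.2% of the 1355 windows of 50 bases in the H2-DMb1 transcript also occurred in that of H2-DMb2. The promoter stretch shown for H2-DMb1 shared 26 of its 30 bases with the H2-DMb2 stretch. How reads that fit both were counted is not given in the sources used here, and with 50389 counts on H2-DMb1 and 2803 on H2-DMb2 the lower copy is uncertain.

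H2-Oa (chromosome 17, 34092340 to 34095234), the alpha chain of H2-O, was barely measured. It had 7, 18, 12 and 4 counts in the mtD2+ libraries and 3, 21, 40 and 18 counts in the mtD2- libraries. The groups overlapped, and the log2 fold change of −0.66 came with an SE of 0.86 (adjusted p = 0.698). Its partner H2-Ob had more counts, with 187, 274, 250 and 216 in mtD2+ and 212, 403, 280 and 338 in mtD2-. H2-Ob did not pass either, at −0.24 on the log2 scale (SE 0.22, adjusted p = 0.563).

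**Figure D2:**
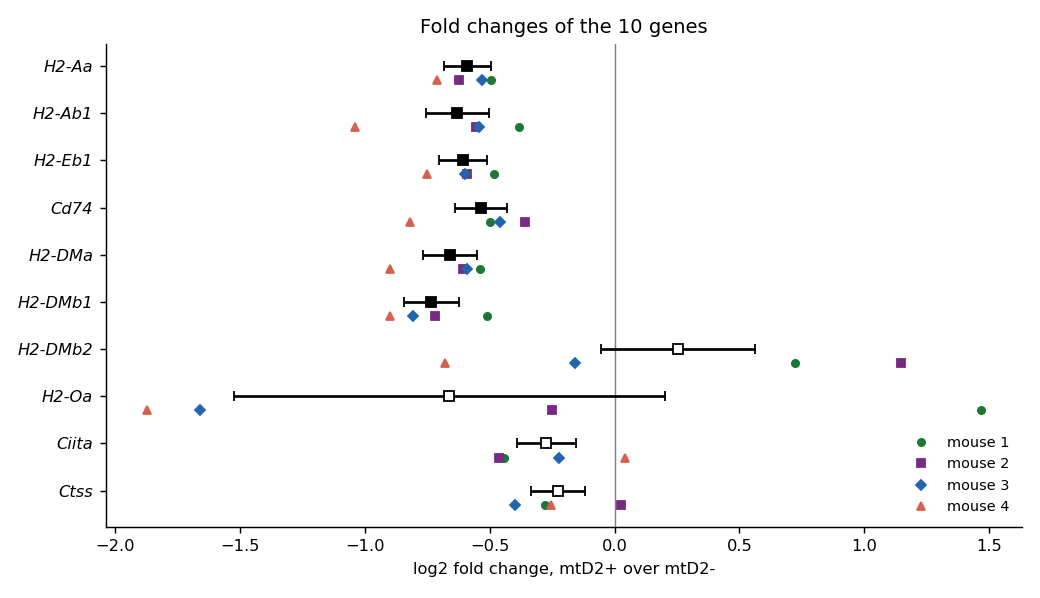
Log2 fold change of mtD2+ over mtD2- for each gene. Black squares with bars are the fitted value and its SE (filled where the adjusted p is under 0.05), and coloured symbols below them are the 4 mice; the 6 filled squares lie between −0.73 and −0.53.

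Ciita and Ctss, which act before and after the class II chains are made, had smaller fold changes that did not pass. Ciita (chromosome 16, 10488178 to 10527564) stood at 128, 102, 150.5 and 154 CPM in mtD2+, against 174, 141, 176 and 150.2 CPM in mtD2-. It was lower in mice 1, 2 and 3 and about level in mouse 4, the mouse in which class II chains differed most. The log2 fold change was −0.27 (SE 0.12, adjusted p = 0.219), or −0.38 without mouse 4 (adjusted p = 0.125). In GENCODE M21, Ciita transcripts that begin upstream of the span in the deposited tables are annotated, so reads from those first exons were not counted. Ctss (chromosome 3, 95526786 to 95556403) stood at 815, 918, 716 and 1038 CPM in mtD2+, against 988, 900, 943 and 1236 CPM in mtD2-. It was lower in mice 1, 3 and 4 and near level in mouse 2, and its fitted value was −0.23 (SE 0.11, adjusted p = 0.259).

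Whether members fell by unequal amounts was asked with 7 ratios between members within a library, compared between the paired libraries by an exact sign-flip permutation test (two-sided). With 4 pairs the smallest p it can give is 0.125, so no ratio could pass 0.05. Without pairing, an exact permutation test of 4 against 4 libraries gave 0.0286, its smallest possible p, for Ctss to H2-Aa and for H2-DMb2 to H2-DMb1 (0.1 adjusted over the 7). The count ratio of Ctss to H2-Aa was 0.129, 0.170, 0.120 and 0.114 in mtD2+, against 0.111, 0.108, 0.109 and 0.0832 in mtD2-. It was higher in mtD2+ in all 4 mice, by a mean of 0.36 on the log2 scale (SD 0.24, exact p = 0.125, adjusted over 7 ratios 0.219). The ratio of Ciita to H2-Aa was also higher in 4 of 4 mice, by 0.32 (SD 0.31), and that of H2-DMb1 to H2-Aa was lower in 4 of 4, by −0.14 (SD 0.11), both with the same exact p. The ratio of H2-DMb2 to H2-DMb1 was 0.0809, 0.0761, 0.0853 and 0.0708 in mtD2+, against 0.0344, 0.0209, 0.0544 and 0.0607 in mtD2-. That is a mean difference of 0.99 on the log2 scale (SD 0.72, exact p = 0.125), with all mtD2+ libraries above all mtD2- libraries. The ratio of Cd74 to H2-Aa differed by 0.06 (SD 0.16, exact p = 0.750) and that of H2-DMa to H2-Aa by −0.07 (SD 0.09, exact p = 0.250), with mixed signs over mice. That of H2-Oa to H2-DMa, by 0.08 (SD 1.44, exact p = 1), spread too widely to read.

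**Figure D3:**
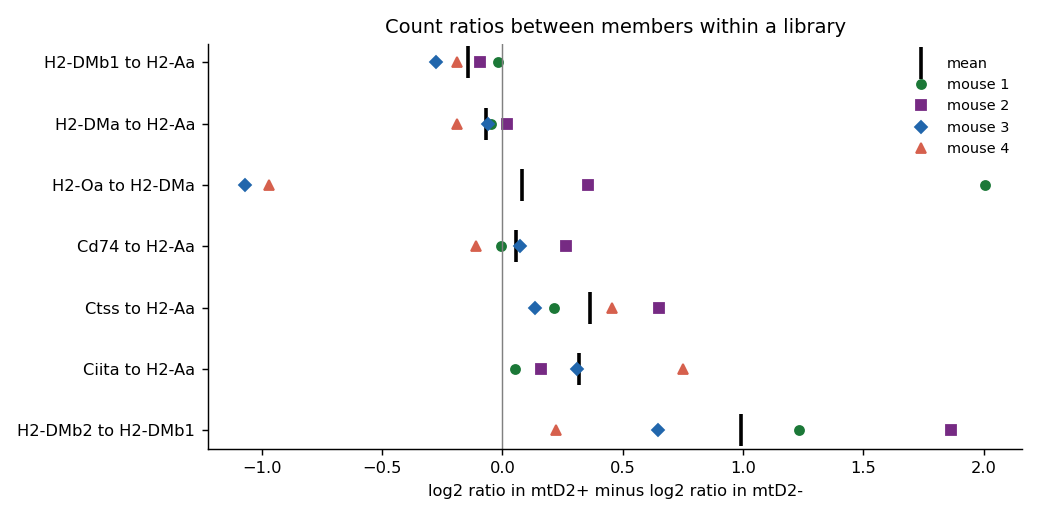
Difference between the paired libraries in the log2 ratio of 2 members, mtD2+ minus mtD2-, for each mouse (coloured symbols) and the mean (black bar). Ctss and Ciita against H2-Aa, and H2-DMb2 against H2-DMb1, lie to the right of 0 in all 4 mice, while Cd74 against H2-Aa straddles 0.

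Between genes, levels were compared per length with the deposited RPKM values, which use library totals. In mtD2+, Cd74 had 20334 ± 3827 RPKM, followed by H2-Eb1 (3579 ± 825), H2-Aa (3486 ± 792), H2-Ab1 (2032 ± 261), Ctss (627 ± 89.4), H2-DMa (293 ± 50.3), H2-DMb1 (133 ± 12.2), Ciita (24.9 ± 4.41), H2-DMb2 (9.01 ± 0.961) and H2-Oa (0.326 ± 0.152). The order was the same in mtD2-, where Cd74 had 31078 ± 8778 RPKM and H2-Oa 0.670 ± 0.523 RPKM. In both groups the ranges of H2-Eb1 and H2-Aa overlapped, and no other neighbours in the order did. H2-Eb1 was above H2-Aa in 4 of 4 mtD2+ libraries and 3 of 4 mtD2- libraries. Per length, Cd74 stood at 5.57 to 6.24 times H2-Aa in mtD2+ and 5.19 to 6.04 times H2-Aa in mtD2-.

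Of the members, 7 lie in the class II region of chromosome 17, between H2-Oa and H2-Eb1, where class I processing genes are interleaved with them. Of the 7, 5 fell. Of 8 other tested genes in this interval, edgeR called 0 in either direction, with a median log2 fold change of −0.28. That count rests on the tool: 5 of the 8 had an unadjusted p under 0.05 (4 lower), DESeq2 called 4 (Tap1, Tap2 and Psmb8 lower, Brd2 higher) and limma voom 2 (Psmb8 and Tap2). Whether these genes differed less than the members was not tested. The proteasome and peptide transporter genes that lie between H2-DMb1 and H2-Ob were all negative without passing in edgeR. Tap2, which pumps peptides into the endoplasmic reticulum for class I, was at −0.49 (SE 0.12, adjusted p = 0.0533) and its partner Tap1 at −0.47 (SE 0.13). The immunoproteasome subunits Psmb8 and Psmb9 were at −0.45 (SE 0.12) and −0.33 (SE 0.13). Brd2, a chromatin reader at the H2-DMa end, was at 0.32 (SE 0.11, adjusted p = 0.116). These 5 were named after their values were seen, because of where they lie.

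**Figure D4:**
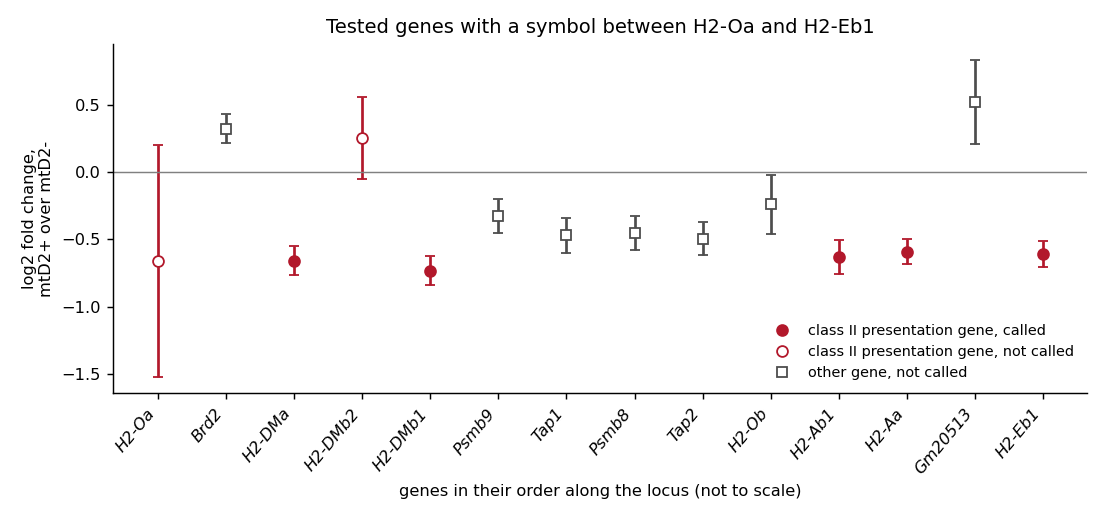
Log2 fold change of mtD2+ over mtD2- with its SE for the tested genes that have a symbol between H2-Oa and H2-Eb1, in their order on chromosome 17. Red circles are the 7 members in this interval and grey squares the other genes, H2-Ob among them; filled symbols passed an adjusted p of 0.05, which were 5 circles and 0 squares in edgeR.

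Of genes that prepare antigen or move class II molecules, 22 were listed and 20 were in the tables and tested. By edgeR 1 rose and 0 fell, while DESeq2, limma voom and library totals each called 1 lower (Sppl2a), and the median log2 fold change was 0.06, against 0.00 over all tested genes. The gene that rose was Ctsd, the aspartic protease cathepsin D, at 1428 ± 331 CPM in mtD2+ and 1019 ± 263 CPM in mtD2- (log2 0.49, SE 0.12, adjusted p = 0.0470). Leaving out any of the 4 mice (0.39 to 0.57) or the block ended the call. The others with the smallest p did not pass in edgeR with TMM. Sppl2a, the intramembrane protease that clears the membrane stub of Cd74, stood at 110 ± 8.30 CPM in mtD2+ and 149 ± 13.0 CPM in mtD2- with no overlap (log2 −0.43, SE 0.12, adjusted p = 0.0722). March8, a ubiquitin ligase of the family that removes class II from the surface, was at 0.49 (SE 0.16, adjusted p = 0.105). Cd83, which protects surface class II from such ligases, was at 0.67 (SE 0.23, adjusted p = 0.125).

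Of 17 genes of class II transcription, 2 rose and 0 fell by edgeR (median −0.01). Both were DNA-binding regulators: the repressor Bcl6 rose to 96.8 ± 30.4 CPM in mtD2+, against 61.1 ± 20.9 CPM in mtD2- (log2 0.68, SE 0.11, adjusted p = 0.0108), and Irf4 rose to 53.9 ± 8.26 CPM in mtD2+, against 37.6 ± 8.48 CPM in mtD2- (log2 0.53, SE 0.13, adjusted p = 0.0471). Bcl6 lost its call without mouse 1, 2 or 3 in turn and Irf4 without any 1 of the 4, neither passed without the block, and Irf4 did not pass with library totals (adjusted p = 0.0687). DESeq2 called 3 genes of the list higher and 1 lower. Spi1 (PU.1) and Irf8, lineage factors of macrophages, stood at 0.38 (SE 0.11) and −0.41 (SE 0.14) without passing in edgeR. The subunits of the complex that binds the X box, Rfx5, Rfxap and Rfxank, lay at −0.05 (SE 0.31), −0.04 (SE 0.44) and −0.07 (SE 0.15). Those of NF-Y, which binds the Y box, were Nfya at 0.24 (SE 0.15), Nfyb at −0.18 (SE 0.19) and Nfyc at −0.24 (SE 0.23). The Rfx and NF-Y genes are given for their role and were named after their values were seen; all 6 had adjusted p-values of 0.388 or more.

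Of 17 tested genes of the interferon gamma pathway, 2 rose and 0 fell (median 0.05). The chemokine Cxcl10 rose to 1035 ± 382 CPM in mtD2+, against 518 ± 322 CPM in mtD2- (log2 1.18, SE 0.17, adjusted p = 0.00817), and kept its call without each mouse in turn but not without the block. The transcription factor Irf1 rose to 883 ± 138 CPM in mtD2+, against 536 ± 191 CPM in mtD2- (log2 0.78, SE 0.18, adjusted p = 0.0442). Its call was lost without the block (adjusted p = 0.148) and without mouse 1, 2 or 3, with log2 fold changes of 0.63 to 1.03 over the 4 fits that left out a mouse. The receptor chain Ifngr1 and the GTPase Irgm1 were at −0.31 and −0.29 (SE 0.11 each) and did not pass. Of 7 tested costimulatory ligands, which give T cells the second signal beside class II, 1 rose. Cd86 stood at 487 ± 53.7 CPM in mtD2+ and 322 ± 45.5 CPM in mtD2- (log2 0.60, SE 0.12, adjusted p = 0.0274) and did not pass when any mouse was left out, and Tnfsf9 was at 0.83 (SE 0.22, adjusted p = 0.0689).

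**Figure D5:**
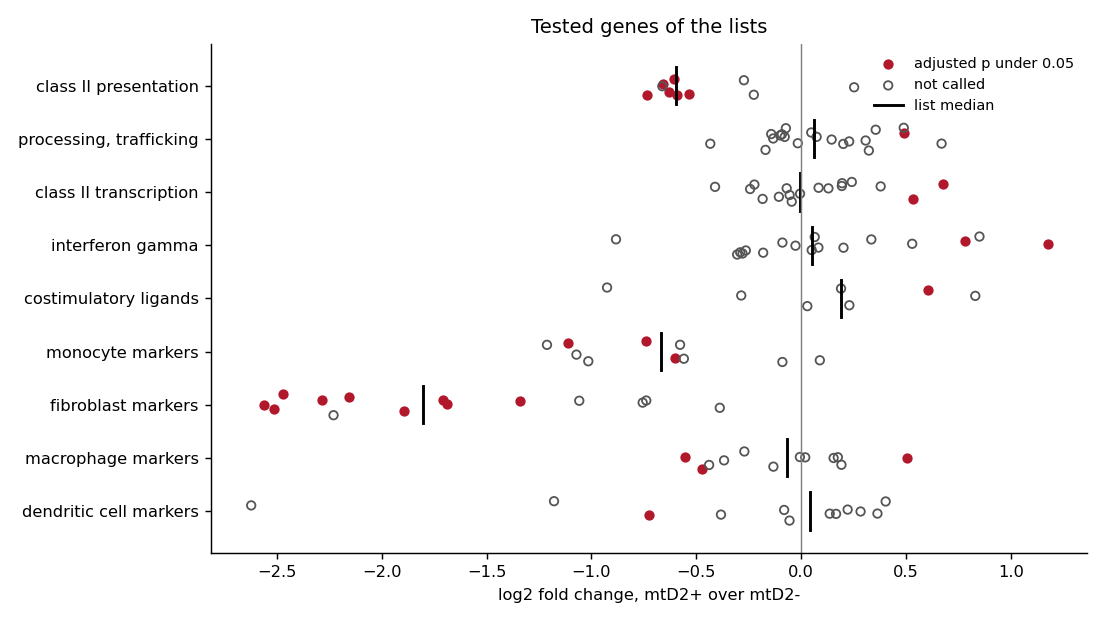
Log2 fold change of mtD2+ over mtD2- for each tested gene of 9 lists (red filled, adjusted p under 0.05; open, not called; black line, list median; vertical position within a list has no meaning). The class II presentation genes have a median of −0.60, while the processing, transcription and interferon gamma lists have medians of 0.06, −0.01 and 0.05. The monocyte and fibroblast marker lists have medians of −0.67 and −1.80. Those of the costimulatory, macrophage and dendritic cell lists are 0.19, −0.07 and 0.04.

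Markers of some other cells moved beside the class II genes, and their part in the result was not tested. For scale, 1.78% of all tested genes were called lower and 3.72% higher. Among 8 tested adipocyte markers 0 were called by edgeR, with 6 positive and 2 negative log2 fold changes (median 0.50). DESeq2 called 3 of these 8 higher and 0 lower. Of 14 fibroblast and preadipocyte markers, cells that the gate should leave out, 9 fell and 0 rose, with a summed level of 627 to 930 CPM in mtD2+, against 1875 to 4700 CPM in mtD2-. The highest of these was again the mtD2- library of mouse 4. Col1a1 stood at 17.3 ± 4.21 CPM in mtD2+ and 99.9 ± 25.5 CPM in mtD2-, and Col3a1 at 36.3 ± 4.16 CPM in mtD2+ and 166 ± 42.8 CPM in mtD2-; none of the 14 was at 0. Of 10 monocyte markers 3 fell (Cx3cr1, Ccr2 and S100a6) and 0 rose, and their sum was 729 to 893 CPM in mtD2+, against 1040 to 1281 CPM in mtD2-. Ccr2, the receptor that brings monocytes into tissue, stood at 320 ± 47.2 CPM in mtD2+ and 532 ± 56.6 CPM in mtD2- (log2 −0.74, SE 0.11, adjusted p = 0.00813). Cx3cr1 kept its call without each mouse in turn, Ccr2 did not without mouse 1 or 3, and S100a6 did not without any of them. Genes that respond to tissue dissociation went the other way: 8 of 21 rose and 0 fell, with sums of 24912 to 30149 CPM in mtD2+, against 13913 to 28304 CPM in mtD2-, but 2 rose without mouse 1, 5 without mouse 2, 2 without mouse 3, 14 without mouse 4 and 1 without the block.

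Dendritic cells and B cells make more class II per cell than most macrophages. Among their markers Batf3 and Cd79b were called lower, while Flt3, Zbtb46 and Ms4a1 did not pass. The log2 fold changes of the tested dendritic cell markers were positive in 6 and negative in 6 (median 0.04). Those of the tested B cell markers were positive in 4 and negative in 3 (median 0.11). DESeq2 called 2 dendritic cell markers higher and 1 lower, and 0 B cell markers higher and 2 lower. The part of such cells in the class II result was not tested. The summed dendritic cell list stood at 1334 to 1649 CPM in mtD2+ and 1228 to 1323 CPM in mtD2-, but most of that sum was 1 gene, the lectin Clec10a, at 1116 ± 115 CPM in mtD2+ and 915 ± 65.2 CPM in mtD2- (adjusted p = 0.125). Flt3, the growth factor receptor of dendritic cells, was at 0.442 ± 0.623 CPM in mtD2+ and 1.29 ± 0.618 CPM in mtD2-, and was at 0 in 2 mtD2+ libraries. Zbtb46, a transcription factor of conventional dendritic cells, was at 13.3 ± 2.93 CPM in mtD2+ and 12.3 ± 3.88 CPM in mtD2- (log2 0.14, SE 0.21, adjusted p = 0.749). Of 12 tested dendritic cell markers 1 fell, Batf3 (log2 −0.72, SE 0.15, adjusted p = 0.0278), which did not pass with any mouse left out. The B cell gene Ms4a1 averaged 1.06 ± 1.70 CPM in mtD2+ and 0.333 ± 0.406 CPM in mtD2- (SD, n = 4 each). Of 7 tested B cell markers 1 fell, Cd79b (log2 −0.92, SE 0.21, adjusted p = 0.0419), which lost its call without mouse 1, 2 or 3. The summed B cell list stood at 189 to 218 CPM in mtD2+ and 169 to 248 CPM in mtD2-. That sum was lower in mtD2+ in mice 1, 2 and 3 and higher in mouse 4.

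The 5 genes nearest to the mean centred profile of H2-Aa, H2-Ab1, H2-Eb1 and Cd74 over the 8 libraries were those 4 themselves, which define the profile and so rank high by construction, and H2-DMa, out of 9364 genes with at least 5 CPM on average. Likeness was the root mean square difference of centred log2 CPM, which was 0.04 for H2-Eb1 and 0.08 for H2-DMa. The next 6 were Oxsm (0.11), Coro1a (0.14), Nuak1 (0.14), Srsf9 (0.14), Cd52 (0.16) and Twf2 (0.16). They were picked for this likeness in the same 8 libraries, so a similar fall in mtD2+ follows from the choice. Their fold changes and p-values below are thus no separate result. Oxsm encodes an enzyme of mitochondrial fatty acid synthesis, Coro1a and Twf2 encode actin-binding proteins, and Cd52 a surface protein of leukocytes. Coro1a stood at 483 ± 80.3 CPM in mtD2+ and 719 ± 147 CPM in mtD2- (log2 −0.57, SE 0.10, adjusted p = 0.0164), and Twf2 fell by 0.62 (SE 0.11, adjusted p = 0.0145); the other 4 did not pass. Both calls were lost without 3 of the 4 mice in turn and without the block. H2-DMb1 ranked 27th, Ctss 221st, Ciita 1229th and H2-DMb2 5803rd in the same order, and H2-Oa was under the level required.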

How the data were processed

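Per the submitters' processing notes, the tools were bcl2fastq, STAR (2.0.4b) and Subread's featureCounts (1.45), on GRCm38; their options and strand setting are not stated there. Per the labels, an RNeasy Micro kit and a SMARTer Ultra-Low kit were used. The authors deposited 1 table per library with raw counts of reads per gene, CPM scaled to the library total, and RPKM, which is that CPM per kilobase of gene length. The deposited CPM was not used, and the deposited RPKM served only to compare levels between genes. Of 41388 genes, 40340 had a symbol in GENCODE M21.

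The test of the counts was edgeR's (4.0.16, R 4.3.3; quasi-likelihood F test, TMM, mouse as block, then group). The low-count filter was filterByExpr (count 10, total 15, proportion 0.7), and calls needed a Benjamini-Hochberg adjusted p under 0.05 over all 13933 tested genes. All adjusted p-values come from this fit unless another is named. Each fold change has mtD2+ on top; its SE was taken as its log2 size divided by the root of F. Pairing rests on the labels, which give each library's mouse; same-mouse deviations from the group means correlated at 0.039, 0.070, 0.145 and 0.251 for mice 1 to 4. Libraries of a group differed by a chi-square of 35.2 to 155 per df, so none was a repeat. The scripts were tested on simulated data that held no mouse effects. There the fit called 22.4% of 49 genes changed by 1.5 times and 54.3% of 46 genes changed by 2 times. It also called 6 of 13355 unchanged genes. A gene that did not pass may thus still differ. Alternatives used DESeq2 1.42.0 and limma voom 3.58.1, 3 other scalings, 2 other filters, no block, and each mouse left out. Depth was 18462287 to 27464399 counts a library.

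The members and lists were chosen with earlier results of these data known. The text names all 10 members, up to 4 genes of smallest p from each other list, the defining markers of 3 lists, and the 6 genes of most similar profile; other names are marked. One marker that the rule would name is not reported here.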

Additional observations from a re-analysis of the deposited data

Results flagged for a closer look

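In 8 of 36 groups of 4 values examined, 1 value lay far from the other 3, where chance gives about 1 in 20 for independent groups. These groups were not independent. They came from the same libraries, and the share and the ratios reuse genes that were also examined alone. The 8 are therefore not separate departures, and their number cannot be tested against that rate. Of the 8, 6 were values of the mtD2- library of mouse 4. In that library H2-Aa was at 14855 CPM, against 8345 to 8872 CPM in the other mtD2- libraries, H2-Eb1 at 9933 CPM against 5266 to 5826, H2-DMa at 1171 CPM against 647 to 699, and Cd74 at 67480 CPM against 32602 to 37557. The share of counts on H2-Aa, H2-Ab1, H2-Eb1 and Cd74 was 9.25% there, against 5.40% to 6.05%. The log2 ratio of Ctss to H2-Aa was −3.59 there, against −3.21 to −3.17. The log2 ratio of H2-DMa to H2-Aa was −3.74 in the mtD2- library of mouse 3, against −3.67 to −3.66 in the other mtD2- libraries. The remaining value was Cd74 in the mtD2+ library of mouse 4, at 38273 CPM against 25402 to 27310 CPM in the other mtD2+ libraries. The mtD2- library of mouse 4 also had the highest summed fibroblast markers (4700 CPM, against 1875 to 2046 CPM in the others). Its part in these values was not tested. Without mouse 4 the same 6 members were called.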

How the results depend on the processing

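Of the alternative values, 187 kept their direction and call or stayed near the main value. Of the rest, 22 were counts that moved further, 17 were lost calls, 4 changed sign and 2 gained a p under 0.05. Some of the 187 could not change: with 3 pairs the exact p of a ratio is 0.25 or more, so no ratio could gain a call. H2-Aa, H2-Ab1, H2-Eb1, Cd74, H2-DMa and H2-DMb1 kept their calls under library totals, RLE and upper quartile scaling, both other filters, DESeq2 and limma voom. Without the replicate block H2-Aa (−0.61), H2-Ab1 (−0.67), H2-Eb1 (−0.63), H2-DMa (−0.69) and Cd74 (−0.58) lost theirs, which left 1 member called, and the genes called numbered 147 higher and 71 lower in place of 519 and 248. The other lists then held 1 higher and 10 lower calls in place of 15 and 16. DESeq2 called 1130 genes higher and 669 lower, and 28 higher in the other lists. The cause of these shifts was not tested. With each mouse left out (3 pairs, fewer samples), 120 to 432 genes were called higher and 46 to 123 lower, and 0 to 6 members. In the other lists 3 to 19 were then higher and 8 to 13 lower. The fits without a mouse gave log2 fold changes of −0.62 to −0.55 for H2-Aa, −0.71 to −0.49 for H2-Ab1, −0.65 to −0.56 for H2-Eb1, −0.70 to −0.58 for H2-DMa, −0.81 to −0.68 for H2-DMb1 and −0.59 to −0.44 for Cd74. Calls were lost without mouse 1 or 3 for H2-Aa, H2-Eb1, H2-DMa and Cd74, without mouse 1, 2 or 3 for H2-Ab1, and without mouse 3 for H2-DMb1. Without mouse 2 the sign turned for H2-DMb2 (−0.040, with a range of −0.040 to 0.57), the ratio of Cd74 to H2-Aa (−0.013, −0.013 to 0.11) and that of H2-Oa to H2-DMa (−0.01, and −0.56 without mouse 1, −0.56 to 0.46). Unpaired, with no replicate block, the ratios of Ctss to H2-Aa (0.36) and H2-DMb2 to H2-DMb1 (0.99) reached an exact p of 0.0286, and 0.1 adjusted over 7 ratios. With library totals 53.8% of calls were higher, against 67.7% with TMM, and the median of all genes was −0.06. H2-Oa could not be fitted under the stricter filter. Nothing says that the 2 sorted fractions were handled apart. With the mouse as a block, p-values measure the spread over mice of the difference between the 2 libraries of a mouse. Spread between mice that both libraries share is left out, and spread from library handling is included.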
